A study of Rattus norvegicus with 10 samples.

Results

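Cytosolic ribosomal protein genes encode the proteins that, with ribosomal RNA, build the large and small subunits of the ribosomes outside mitochondria. They were examined on Affymetrix Rat Genome 230 arrays (version 2) of the neurointermediate lobe of the pituitary, 5 from rats kept dehydrated for 3 days and 5 from control rats. All animals were male Sprague Dawley rats aged 10 to 12 weeks, with no genetic alteration named, and the RNA on each array came from a pool of 5 animals. The sample labels and the title name this tissue, whereas the design text gives the supraoptic nucleus of the hypothalamus. The comparison asks which transcripts of the lobe differ after dehydration.

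The genes were chosen by symbol, Rpl for the large and Rps for the small subunit, without the ribosomal S6 kinases. The rule did not use how they changed, but earlier results of these data were known when they were chosen. Only probe sets with 1 symbol in the platform annotation were used. Where a gene had several, the one with the highest mean signal over the 10 arrays stood for it. This gave 48 genes, 33 of the large and 15 of the small subunit, out of 14217 genes with such a probe set. Of these 48, 45 had a probe set bright enough to be tested (30 large, 15 small). The other 3 were large subunit genes whose probe set read near the bottom of the signal scale. Rpl28 averaged 18.9 ± 6.61 in dehydrated and 19.3 ± 6.54 in control lobes (SD, n = 5 each, as throughout). Rpl30 averaged 8.18 ± 5.81 in dehydrated and 7.86 ± 3.48 in control lobes, and Rpl3l, a form known from skeletal and heart muscle, 1.96 ± 2.45 in dehydrated and 1.14 ± 0.723 in control lobes. Rat genomes hold many processed copies of ribosomal protein genes, so a probe set may also read RNA of a near-identical copy.

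Ribosomal protein genes are transcribed together in most cells, since each ribosome needs about equal numbers of its proteins. In vertebrates their mRNAs begin with a run of pyrimidines, the 5′ terminal oligopyrimidine (TOP) motif, through which the mTOR pathway controls their translation. The neurointermediate lobe holds the axon endings of vasopressin and oxytocin neurons with their glia, the pituicytes, beside the melanotrophs of the intermediate lobe, which make large amounts of pro-opiomelanocortin. Dehydration drives hormone release from those endings.

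The start regions of the genes that rose, and of 3 paralogues that did not pass the test, are printed because the pyrimidine run is the sequence these genes are known to share. Each line holds 30 bases, 15 on either side of the annotated start, from RefSeq promoters of assembly GRCr8, with the longest run of C and T in capitals. Rpl27 had no entry.
Rps28: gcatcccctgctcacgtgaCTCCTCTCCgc, at chr7:15311319-15311348, minus strand.
Rpl24: gaatttagggaggagaTTCTCTaccctata, at chr11:58128391-58128420, minus strand.
Rps9: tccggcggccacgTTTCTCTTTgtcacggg, at chr1:74430423-74430452, minus strand.
Rpl35a: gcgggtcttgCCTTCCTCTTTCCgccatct, at chr11:81235007-81235036, minus strand.
Rpl35: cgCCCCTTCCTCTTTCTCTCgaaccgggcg, at chr3:43165907-43165936, minus strand.
Rpsa: CCTTTCCgcgctaccctggaacgggtccgt, at chr8:128728864-128728893, plus strand.
Rpl14: gggcgggCCCTCTCCCTTCTCgctgagcgc, at chr8:129163605-129163634, plus strand.
Rpl22: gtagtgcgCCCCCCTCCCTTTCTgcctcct, at chr5:168117946-168117975, plus strand.
Rpl4: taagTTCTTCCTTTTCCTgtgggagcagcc, at chr8:73566462-73566491, plus strand.
Rpl26l1: aaatgtcaTTTCCgggcctgcgcacacacc, at chr10:17029014-17029043, minus strand.
Rpl7l1: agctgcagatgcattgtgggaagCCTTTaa, at chr9:21695703-21695732, plus strand.
Rps27l: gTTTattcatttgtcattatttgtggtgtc, at chr8:76443643-76443672, plus strand.

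Among the 43 ribosomal protein genes with a promoter entry, 32 (74.4%) had a run of at least 6 C or T bases on the transcribed strand in this window, against 5244 of 19005 protein-coding genes (27.6%). A run of that length covered the first transcribed base in 19 (44.2%), against 1252 of the protein-coding genes (6.59%). Of the genes that rose and had an entry, 9 of 9 had a run in the window, as did 18 of the 25 other genes with a mean signal of at least 1000 and 5 of the 9 dim or untested ones. The run covered the first transcribed base in 6 of the 9 that rose, 10 of those 25 and 3 of the 9 dim or untested ones. Rpl34, which did not pass the test, had the longest run of the 43, 20 bases. Among the windows printed above, the run was longest in Rpl35, with 18 bases. It was 5 bases or fewer in Rpl26l1, Rpl7l1 and Rps27l, which were picked as paralogues. These do not stand for the other paralogues or for the dim genes as a whole. Rps4y2, Rpl3l and Rpl39l1, also paralogues by symbol, had runs of 8, 6 and 4 bases, and Rps13, also dim, had a run of 10 bases. The motif CCGGAAG, bound by ETS factors, was in 10 of the 43 promoters of 300 bases on either strand (23.3%), against 11.2% of all. GCCATNTT, the core bound by YY1, was in 6 of 43 (13.95%), against 8.02% of all. These matches describe the letters in the windows only, and an annotated start can lie some bases away from the one used in this tissue.

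Over all probe sets any pair of arrays correlated at 0.947 to 0.976 on the log2 scale, and median signals averaged 36.6 ± 1.33 in dehydrated and 37.7 ± 1.29 in control lobes. The dehydrated arrays did not lie together in the ribosomal protein genes. Over the 45 tested genes the mean log2 signal was 11.26, 11.35, 11.22, 11.01 and 10.87 on dehydrated arrays 1 to 5, against 10.90, 10.86, 10.80, 10.95 and 10.90 on control arrays 1 to 5. Dehydrated array 5 thus sat among the controls, dehydrated array 4 just above them, and the other 3 clearly higher. The numbers only name the arrays. Probe sets with a mean signal of at least 2000 that name no ribosomal protein gene had a similar order. Their median log2 signal was 11.50, 11.47, 11.46, 11.35 and 11.27 on dehydrated arrays 1 to 5, against 11.24 to 11.33 on control arrays. Because each array carries bulk RNA, fewer cells of a type and less RNA per cell cannot be told apart, and every change is relative to all probe sets of an array.

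Ribosomal protein genes were mostly a little higher in dehydrated lobes. Of the 45 tested, 10 rose at an adjusted p under 0.05 (limma, Benjamini-Hochberg over all 18625 tested probe sets), which is 22.2%, against 1.68% of all tested probe sets. None fell, against 0.784% of all, and at an unadjusted p under 0.05 limma counted 37 of 45 higher and 1 lower, against 8.70% higher and 8.66% lower of all tested probe sets. The median log2 change was 0.29, a fold of 1.22, against -0.01 over all tested probe sets, and single genes ran from -0.22 to 0.50. The log2 change was above 0 in 41 of 45 genes, against 47.4% of all tested probe sets. After quantile normalization of the arrays it was above 0 in 33 of 45 genes. All 5 dehydrated arrays lay above all 5 control arrays in 6 of 45 genes, while 2.78% of all tested probe sets showed this. In 18 further genes 4 dehydrated arrays did so, and in 14 genes 3. The share of all tested probe sets with 3 or 4 such arrays was not counted.

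How many genes passed depended on single arrays. Without dehydrated array 5 the count was 32, and without dehydrated arrays 1, 2, 3 and 4 it was 3, 4, 1 and 9. Without control arrays 1, 2, 3, 4 and 5 it was 6, 3, 3, 4 and 3. It was also lower, at 5, after quantile normalization, at 4 with the 3′ to 5′ ratio described further on as a covariate, and at 1 without an intensity trend in the variance. Rps28 passed under all 23 alternatives run, while Rpl24 and Rps9 missed the threshold only without the trend and without dehydrated array 3.

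**Figure D1:**
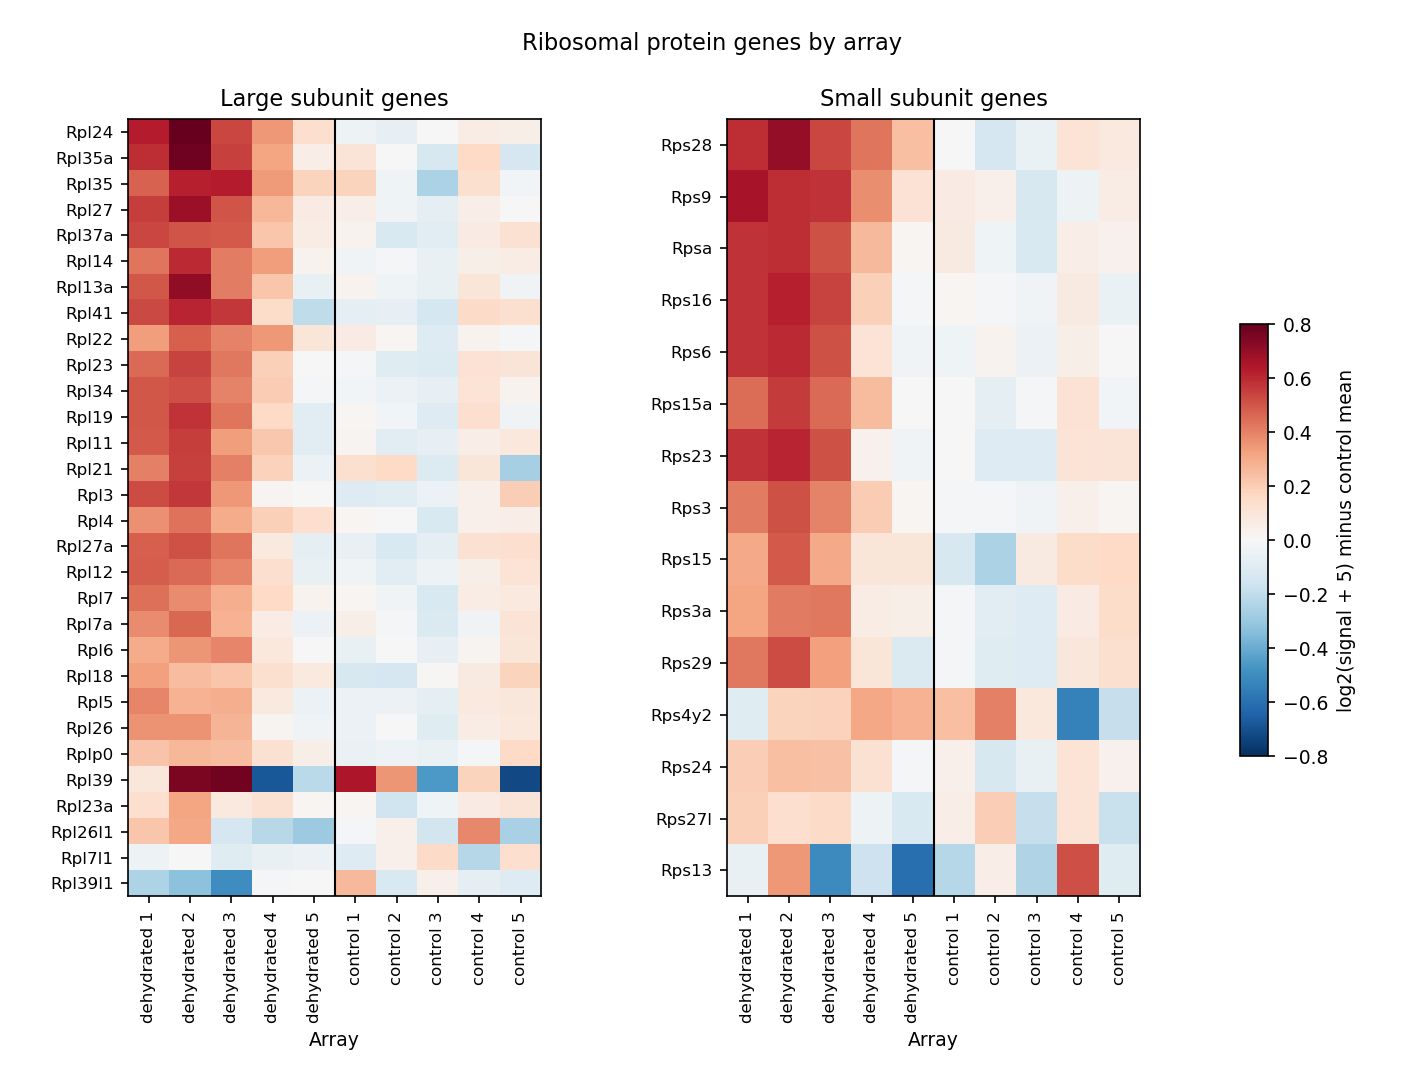
Heat maps of the log2 signal of each tested ribosomal protein gene (rows, large and small subunit apart) on each array (columns, 5 dehydrated then 5 control), as the difference from that gene's control mean. Dehydrated arrays 1 to 3 are high across most rows, array 4 less so, and array 5 resembles the control arrays.

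The genes fell into a bright and a dim group by the signal of the probe set used. This signal also depends on the probes: the 2 probe sets of Rpl14 averaged 2411 and 8.12 over all arrays. The dim group is thus not a group of genes known to be little expressed. The 38 genes with a mean signal of at least 1000 (26 large, 12 small; 2019 to 6928 in fact) had log2 changes of 0.13 to 0.50 with a median of 0.31, all above 0, although only 29 of 38 were after quantile normalization. All 10 genes that rose were among them. Dehydrated array 2 was the highest of the 10 arrays in 29 of these genes, array 1 in 6 and array 3 in 3. Dehydrated array 5 was the lowest dehydrated array in 37 and lay above the control mean in 19. Dehydrated arrays 1 and 2 exceeded every control array in 38 of 38 genes, array 3 in 37, array 4 in 25 and array 5 in 6. The share of all tested probe sets that did so on each array was not counted. The spread was larger in dehydrated lobes too. The median within-group SD on the log2 scale was 0.22 in dehydrated and 0.083 in control lobes, and larger in dehydrated lobes for 36 of 38 genes. Over all tested probe sets this SD was 0.198 in dehydrated and 0.168 in control lobes, and it was larger in dehydrated lobes for 61.3% of them.

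The large subunit carries the peptidyl transferase centre and the exit tunnel of the new protein. Of its 30 tested genes 7 rose (23.3%, against 1.68% of all tested probe sets) and none fell. The log2 change was above 0 in 27, with a median of 0.29. At an unadjusted p under 0.05, 25 of 30 were higher and 1 was lower, against the 8.70% and 8.66% of all tested probe sets.

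Rpl24 encodes a protein that forms a bridge between the subunits. It had signals of 3647, 4114, 3418, 2994 and 2580.2 in dehydrated lobes, against 2284, 2248, 2355, 2456 and 2434 in control lobes. Its groups did not overlap, and the log2 change was 0.49 (SE 0.10, limma adjusted p = 0.0145), a fold of 1.40. Rpl27, another large subunit protein, had 4340.1, 4742, 4196, 3556 and 3089 in dehydrated lobes, against 3062, 2893, 2810, 3062 and 2951 in control lobes. The lowest dehydrated array stood just above the highest control, and the mean was 1.33-fold higher (limma adjusted p = 0.0308).

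Rpl35a and Rpl35 rose with overlap between the groups. Rpl35a, mutated in some human families with Diamond-Blackfan anaemia, had 5124, 5837, 4957, 4233 and 3519.9 in dehydrated lobes, against 3644, 3403, 3103, 3790.1 and 3089 in control lobes. Dehydrated array 5 lay below control arrays 1 and 4, and the log2 change was 0.46 (SE 0.11, limma adjusted p = 0.0408). Rpl35, which lies beside the exit tunnel, had 3664, 4062, 4080.5, 3344 and 2981 in dehydrated lobes, against 2987, 2571, 2214, 2878 and 2601 in control lobes. Here dehydrated array 5 was only just below the highest control array, and the change was 1.37-fold (limma adjusted p = 0.0204).

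Rpl22, Rpl14 and Rpl4 also rose, by smaller folds. Rpl22, an RNA-binding protein that is not needed for translation as such in mice, had 2575, 2849, 2691, 2605 and 2184 in dehydrated lobes, against 2144, 2067, 1902, 2087 and 2034 in control lobes. The groups did not overlap, and the log2 change was 0.33 (SE 0.07, limma adjusted p = 0.0248). Rpl4, a core protein with a loop that reaches into the exit tunnel, had 3523, 3701, 3357, 3117 and 3003 in dehydrated lobes, against 2769, 2744, 2510.0, 2816 and 2841 in control lobes. It did not overlap either, at a log2 change of 0.28 (limma adjusted p = 0.0464), the smallest of the 10 that passed. Rpl14 had 2829, 3183, 2795, 2649 and 2141 in dehydrated lobes, against 2062, 2076, 2012, 2175 and 2186 in control lobes, so that dehydrated array 5 fell inside the control range (log2 change 0.36, limma adjusted p = 0.0389).

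The other 19 bright large subunit genes did not pass, with log2 changes of 0.13 to 0.36 and adjusted p of 0.0516 to 0.364. Rplp0, the base of the P stalk that binds elongation factors, had 3262, 3337, 3306, 3023 and 2871 in dehydrated lobes, against 2681, 2706, 2683, 2749 and 3106 in control lobes. Control array 5 stood well above the other controls and above dehydrated arrays 4 and 5, and the log2 change was 0.18 (limma adjusted p = 0.186). Rpl3, which lies close to the peptidyl transferase centre, had a log2 change of 0.29 (limma adjusted p = 0.181). The smallest bright value in this subunit was 0.13, for Rpl23a at the exit of the tunnel, and it was 0.20 for Rpl26, known in human cells for binding p53 mRNA (adjusted p = 0.364 and 0.248). Rplp0, Rpl23a and Rpl26 were below 0 after quantile normalization, and so was Rpl7, whose log2 change was 0.26 (adjusted p = 0.104) on the values as deposited.

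The small subunit decodes mRNA. Of its 15 tested genes 3 rose (20%, against 1.68% of all tested probe sets) and none fell. The log2 change was above 0 in 14, with a median of 0.31. At an unadjusted p under 0.05, 12 of 15 were higher and 0 were lower, against 8.70% and 8.66% of all tested probe sets.

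Rps28, a small protein near the mRNA exit, had the largest change of all 45 genes. Its signals were 3616, 3914, 3485, 3232 and 2840.4 in dehydrated lobes, against 2394, 2190, 2317, 2597 and 2535 in control lobes. The groups did not overlap, with a gap between dehydrated array 5 and the highest control, and the log2 change was 0.50 (SE 0.08, limma adjusted p = 0.00381), a fold of 1.41.

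Rps9, whose bacterial counterpart binds early in small subunit assembly, had 3659, 3480.5, 3445, 2986 and 2506 in dehydrated lobes, against 2423, 2373, 2114, 2250.3 and 2405 in control lobes. Again every dehydrated array was above every control (log2 change 0.46, limma adjusted p = 0.0127). Rpsa, also known as the laminin receptor precursor, had 3764, 3799, 3589, 3025 and 2553 in dehydrated lobes, against 2650, 2460, 2315, 2620 and 2585 in control lobes. Dehydrated array 5 lay below 3 of the controls, and the log2 change of 0.39 only just passed (limma adjusted p = 0.0476).

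The other 9 bright small subunit genes did not pass, with log2 changes of 0.16 to 0.38 and adjusted p of 0.0596 to 0.272. Rps6, the protein phosphorylated by S6 kinase downstream of mTOR, had 6822, 6913, 6508, 4917 and 4471 in dehydrated lobes, against 4460, 4650, 4416, 4715 and 4571 in control lobes. Dehydrated arrays 1 to 3 were far above the controls and array 5 was within them, and the log2 change was 0.35 (limma adjusted p = 0.1001). Rps16, whose tail reaches towards the decoding centre, had a log2 change of 0.38 (adjusted p = 0.0667). Rps24, mutated in some human patients with Diamond-Blackfan anaemia, had the smallest bright value, 0.16 (adjusted p = 0.272), and was below 0 after quantile normalization.

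**Figure D2:**
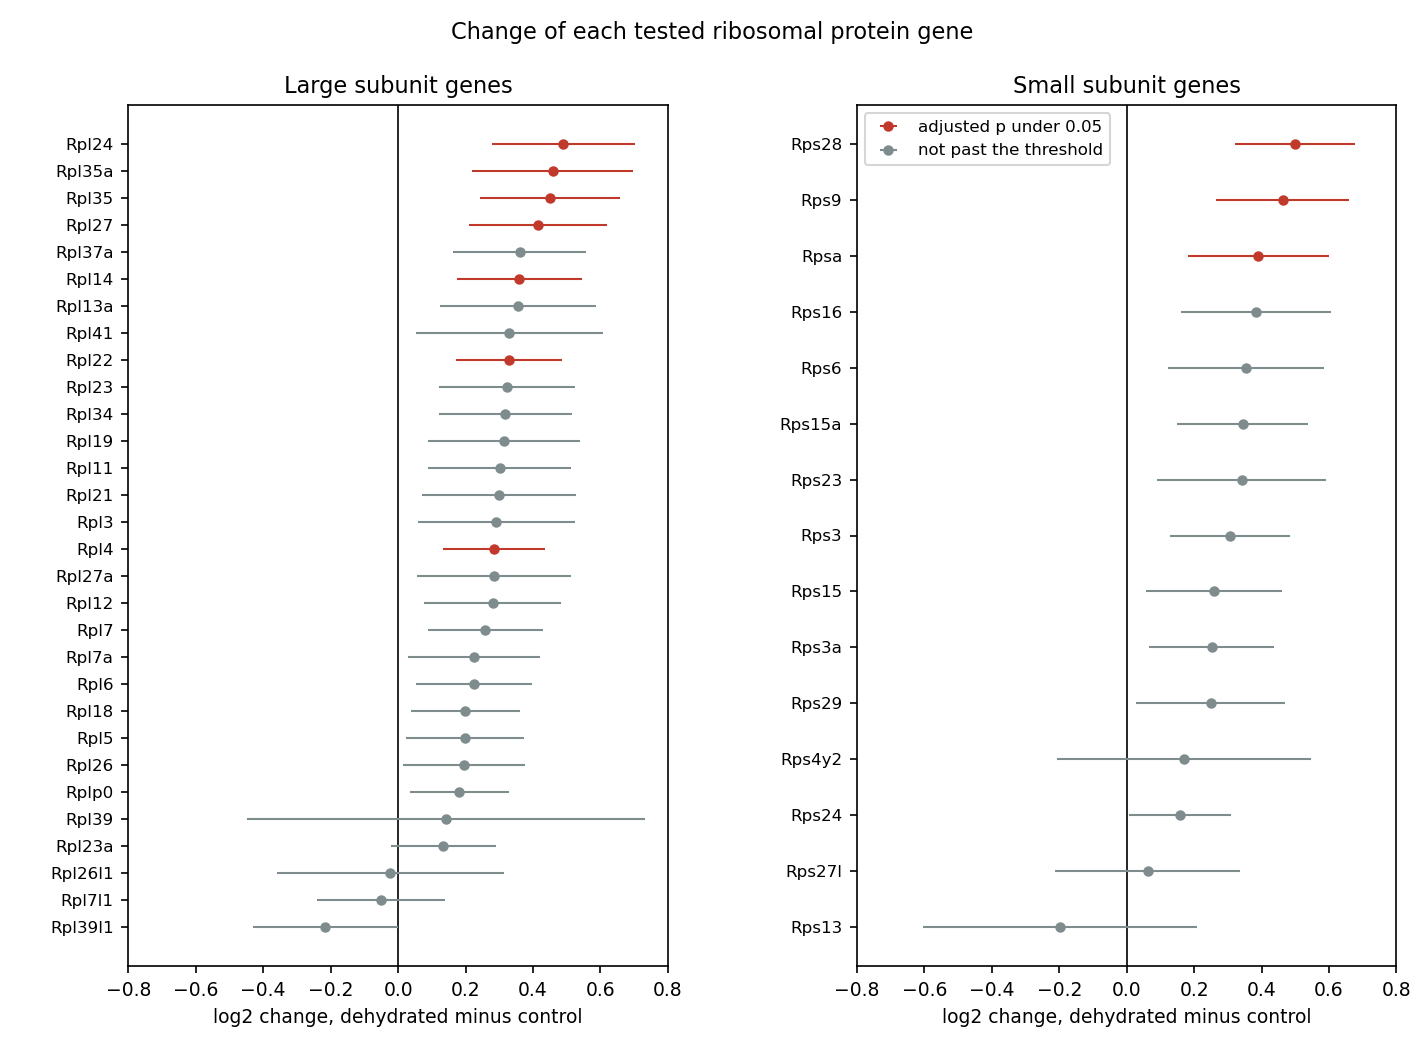
Log2 change (dehydrated minus control) of each tested ribosomal protein gene with its 95% interval from limma, large and small subunit apart. Red marks the 10 genes with an adjusted p under 0.05, all on the right of 0, and the dim paralogues gather around 0.

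Both subunits varied together, array by array. The mean log2 signal of the large subunit genes was 11.32 ± 0.20 in dehydrated and 11.06 ± 0.06 in control lobes, a difference of 0.26. For the small subunit it was 10.79 ± 0.19 in dehydrated and 10.52 ± 0.05 in control lobes, a difference of 0.27. Large minus small was 0.535, 0.526, 0.529, 0.506 and 0.531 on dehydrated arrays 1 to 5, against 0.561, 0.524, 0.521, 0.541 and 0.540 on control arrays 1 to 5.

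The groups overlapped in this balance, which averaged 0.525 ± 0.011 in dehydrated and 0.537 ± 0.016 in control lobes, a difference of -0.012. The balance had a within-group SD of 0.014, against 0.145 for the large and 0.141 for the small subunit alone. Over the 38 bright genes it was -0.147 ± 0.020 in dehydrated and -0.116 ± 0.019 in control lobes, with overlap. The offset between the subunits depends on the probes, so that only its variation between arrays can be read.

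**Figure D3:**
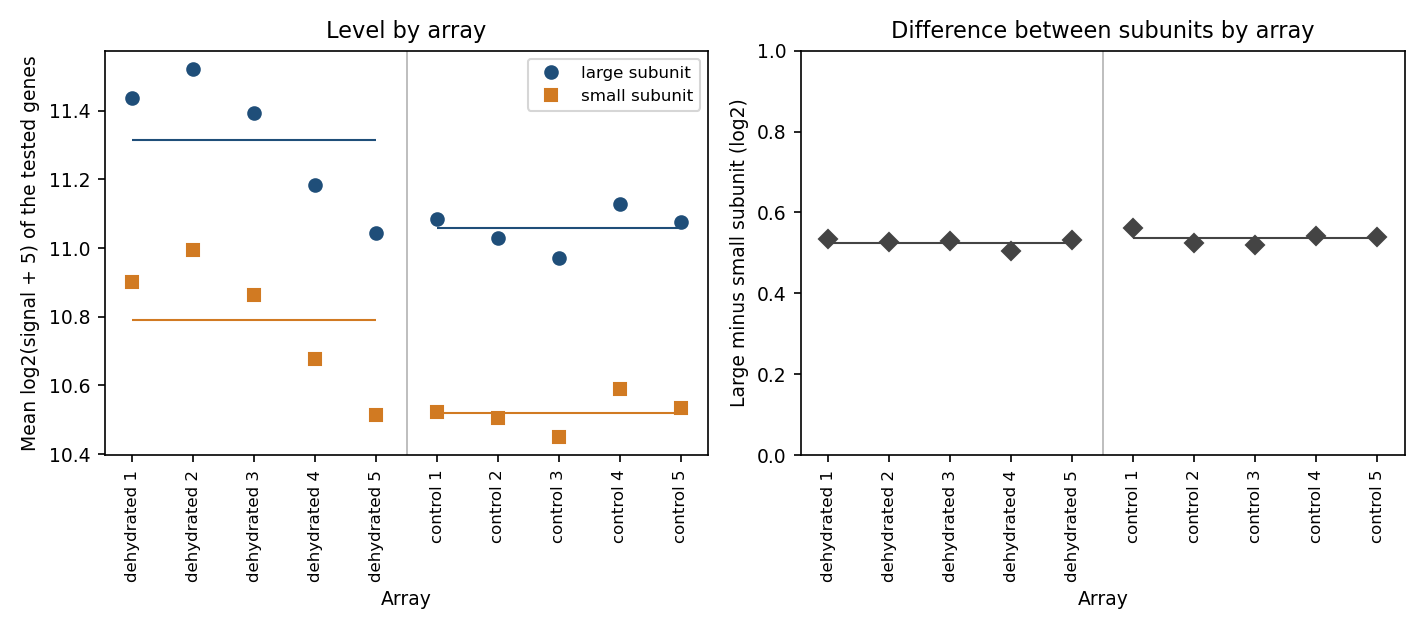
Mean log2 signal of the large and small subunit genes on each array, and large minus small on the same arrays, dehydrated arrays left of control arrays. Both subunits rank the dehydrated arrays in the same order, while the balance stays between 0.506 and 0.561.

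The 7 dim tested genes, with mean signals of 36.9 to 522.6, were mostly paralogues by symbol and had no common direction. Their log2 changes ran from -0.22 to 0.17 with a median of -0.02, and none passed (adjusted p of 0.287 to 0.961). Rpl39l1, named as a copy of Rpl39, averaged 484 ± 71.3 in dehydrated and 561 ± 64.8 in control lobes (log2 change -0.22, 95% interval -0.43 to 0.00, limma adjusted p = 0.287). It was the gene with a lower value at an unadjusted p under 0.05. Rpl7l1, which in human cells acts in ribosome assembly, averaged 164 ± 3.83 in dehydrated and 171 ± 19.6 in control lobes (log2 change -0.05), and a second probe set had -0.11.

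Rpl26l1, a near copy of Rpl26, averaged 51.2 ± 10.8 in dehydrated and 52.0 ± 10.2 in control lobes, a log2 change of -0.02 that turned slightly positive after quantile or cyclic loess normalization. Rps27l, known in human cells as a p53 target, averaged 51.4 ± 5.18 in dehydrated and 49.2 ± 6.37 in control lobes. Rps4y2, a form of Rps4, averaged 38.9 ± 4.64 in dehydrated and 34.8 ± 9.66 in control lobes, and Rps13 43.3 ± 13.2 in dehydrated and 49.96 ± 13.0 in control lobes. Rpl39, a very short protein in the exit tunnel, varied widely, with 113, 182, 184, 64.3 and 90.3 in dehydrated lobes, against 168, 137, 75.6, 120.5 and 62.3 in control lobes. Its groups overlapped throughout, and the log2 change was 0.14 with an SE of 0.28. The log2(signal + 5) scale understates changes of such dim probe sets.

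For 6 genes more than 1 probe set was present, and they did not always give the same value. The 2 further probe sets of Rpsa had log2 changes of 0.36 (adjusted p = 0.0667) and 0.13 (adjusted p = 0.371). The one at 0.13 was nearly as bright as the one used, with mean signals of 2471 and 2936 over all arrays. With the 3 probe sets averaged the log2 change of Rpsa was 0.29 (adjusted p = 0.0471). The other probe set of Rpl3 had 0.15 (adjusted p = 0.601), that of Rpl7 0.12 (adjusted p = 0.717) and that of Rps24 -0.09 (adjusted p = 0.756), all 3 dimmer than the one used. The second of Rpl14 was too dim to test. Another 36 tested probe sets name a ribosomal protein gene together with other symbols, and they were not assigned to a gene. Of these 10 rose (27.8%, against 1.68% of all tested probe sets), and 35 had a log2 change above 0, with a median of 0.32. Rplp1, Rplp2 and Rps27a, which encodes a fusion with ubiquitin, had no probe set with 1 symbol.

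Brightness moved with the change over the whole array. Among tested probe sets that name no ribosomal protein gene, 146 had a mean signal of at least 2000, and their median log2 change was 0.13, with 83.6% above 0 and 8 higher (5.48%). The 38 ribosomal protein genes above that level had a median of 0.31 and 10 higher (26.3%). At a mean signal of at least 3000 the medians were 0.30 for 28 ribosomal protein genes and 0.21 for 50 others, with 4 and 3 genes or probe sets called. With each array centred on the other bright probe sets, 7 ribosomal protein genes rose, and the medians were 0.17 for the large and 0.19 for the small subunit. After quantile normalization they were 0.04 for the large and 0.07 for the small subunit, and after cyclic loess 0.16 for the large and 0.17 for the small. The part of brightness in the result was not tested beyond these values.

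The 3′ to 5′ signal ratio of the Gapdh and beta-actin control probe sets, a measure of how far the amplified RNA is biased towards its 3′ end, also varied. On the log2 scale it was 2.27, 2.67, 2.15, 2.05 and 1.61 on dehydrated arrays 1 to 5, against 2.52, 1.68, 1.51, 1.91 and 1.26 on control arrays 1 to 5. The groups overlapped (exact two-sided permutation test, p = 0.214, n = 5 each). Among dehydrated arrays the order of this ratio was the order of the mean ribosomal protein signal, while control array 1, with the highest control ratio, had an ordinary level of 10.90. With the ratio as a covariate 4 genes rose, and the medians were 0.21 for the large and 0.24 for the small subunit. Its part in the result was not tested further.

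**Figure D4:**
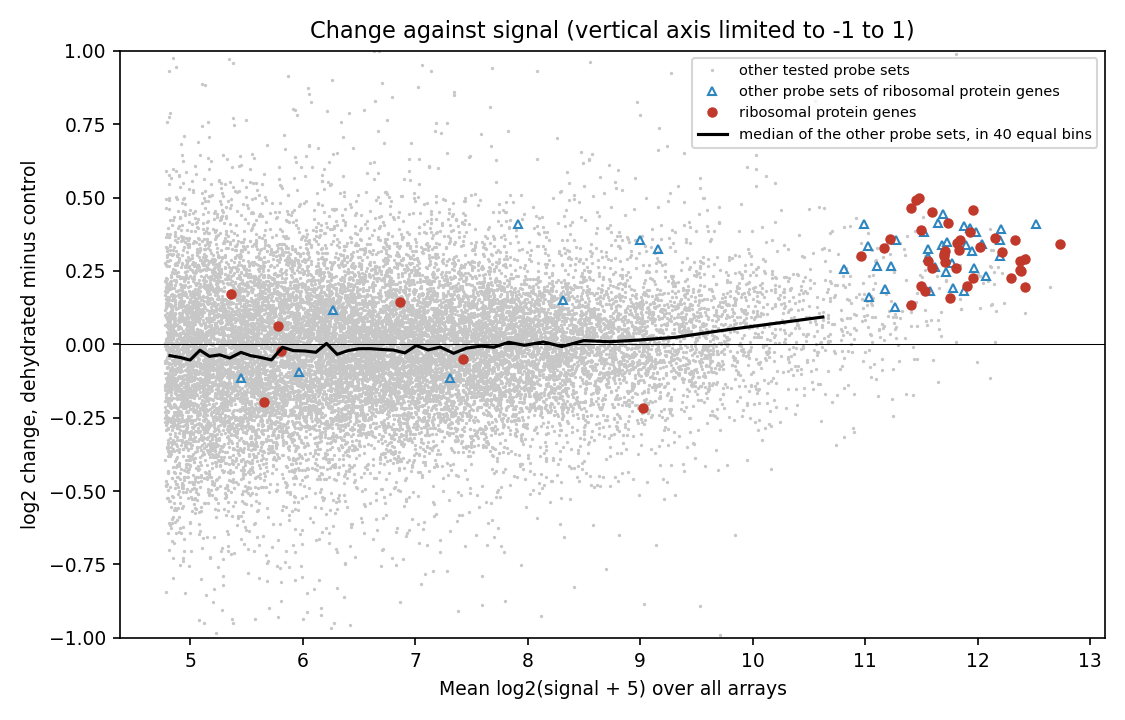
Log2 change (dehydrated minus control) against mean log2 signal for all tested probe sets, with ribosomal protein genes in red, the other 42 probe sets that name one as blue triangles, and the median of the others in 40 bins as a black line. The axis runs from -1 to 1 and leaves out 47 probe sets. The bright red points lie to the right of the last point of the black line, a bin median, and above it. Among the others, 146 probe sets also had a mean signal of at least 2000, and the black line itself turns upward at the bright end.

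Other genes of protein synthesis differed in how far they shared the shift. These lists also differed in brightness, which moved with the change over the whole array. The median signal was 1727 for the TOP list, 269 for mitochondrial ribosomal proteins and 167 for ribosome assembly. It was 351 for initiation factors, 178 for mTOR and its regulators and 1005 for oxidative phosphorylation. The part of brightness in these differences was not tested. Among all tested probe sets, 1.68% rose. Of 12 tested genes for translation factors and other proteins known for a TOP start, 1 rose, 10 had a change above 0, and the median log2 change was 0.23. The one that rose was Eef1d, a subunit of the exchange factor of eEF1A, at 0.59 (limma adjusted p = 0.00453). Of 73 mitochondrial ribosomal protein genes 4 rose, among them Mrpl48 at 0.53 and Mrps6 at 0.50 (adjusted p = 0.00179 and 0.0109), and the median was 0.14 with 62 above 0.

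Of 40 ribosome assembly genes none passed, with 9 higher and 1 lower at an unadjusted p under 0.05 and a median of 0.10; Eif6, which keeps the subunits apart, came nearest at 0.33 (limma adjusted p = 0.0634). Of 48 initiation factor genes none passed, with 5 higher and 4 lower at that unadjusted level, where all tested probe sets had 8.70% and 8.66%, and a median of 0.04. Eif3h had the smallest p among them, at a log2 change of 0.25 (limma adjusted p = 0.0729). Of 15 genes of mTOR and its regulators none passed, with 0 higher and 1 lower unadjusted and a median of -0.02. Ddit4, an inhibitor of mTOR, had a log2 change of -0.51 (adjusted p = 0.207). Genes of oxidative phosphorylation, another set with short and abundant transcripts, had a median of 0.19. Of these 8 of 77 rose (10.4%, against 1.68% of all tested probe sets), among them Uqcrq at 0.47 and Ndufa11 at 0.41 (limma adjusted p = 0.0230 and 0.0390).

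Some marker genes of the lobe's cell types differed between the groups too, where 1.68% of all tested probe sets rose and 0.784% fell. Summed marker signals were 4340 to 4937 in dehydrated and 5143 to 5886 in control lobes for melanotrophs. There 1 of 5 genes fell, Pcsk2, the prohormone convertase (log2 change -0.88). Scg2 at -0.30 (limma adjusted p = 0.0574), Pomc at -0.09, Drd2 at -0.08 and Tbx19 at -0.01 did not pass. The sums weigh bright genes most, and Scg2 was the brightest of these 5. The sums were 6319 to 7102 in dehydrated and 5672 to 6155 in control lobes for pituicytes and astroglia. In this list 3 of 11 rose, among them Gfap at a log2 change of 2.38, and 8 were above 0. S100b at -0.21, Rax at -0.19 and Aqp4 at -0.22 were below 0 and did not pass. Slc1a2 was at or under a signal of 20 on every array. For endothelium and pericytes the sums were 1563 to 1931 in dehydrated and 1059 to 1369.7 in control lobes (4 of 10 higher, 8 above 0, Flt1 largest at 0.90). For fibroblasts they were 9312 to 11784 in dehydrated and 6483 to 7171 in control lobes (3 of 7 higher, 6 above 0). The brightest fibroblast gene, Mgp, averaged 5104 ± 829 in dehydrated and 2544 ± 76.6 in control lobes, and Col1a2 had a log2 change of -0.17. Macrophage sums overlapped, at 1770 to 2606 in dehydrated and 2004 to 2508 in control lobes (1 of 9 higher, 6 above 0). Aif1 rose at 0.42, while Cd68 at -0.74, Cd74 at -0.33 and Mrc1 at -0.32 did not pass. Sums of the anterior lobe overlapped too, at 4837 to 9424 in dehydrated and 2587 to 7973 in control lobes (1 of 6 lower, 5 above 0). Fshb fell at -0.86, while Tshb at 1.17, Gh1 at 0.38, Cga at 0.32, Lhb at 0.26 and Prl at 0.005 did not pass. No myelin, red cell or dividing cell marker passed among 1, 2 and 5 tested. At an unadjusted p under 0.05, 0, 1 and 1 of them were higher, against 8.70% of all tested probe sets. Their part in the ribosomal protein result was not tested.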

How the data were processed

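Total RNA of the neurointermediate lobe was amplified and hybridised, 1 array per pool of 5 animals. Each value of the deposited table is an intensity on a linear scale. GCOS 1.2 is named in the submitters' processing notes, and its algorithm and background step are not given in the sources used here. The authors had scaled the arrays: the mean after trimming 2% at each end was 100 on all 10. Nothing was rescaled here. Detection calls were not used. The number of arrays limits the precision, and the SE differed between probe sets. Pools came from separate animals, per the design text, and p-values measure the spread between pools.

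From 31099 probe sets 57 controls were left out. Values were transformed as log2(signal + 5), and the brightest 60% by mean log2 value over all arrays were tested. The test was limma's (version 3.58.1, R 4.3.3), two-sided, from lmFit and an eBayes step that let the variance follow the signal, and p-values were adjusted after Benjamini-Hochberg over all 18625, with a threshold of 0.05. The steps were tested on simulated data. Tables and figures were made with Python 3.11.15, pandas 2.3.3, scipy 1.17.1 and matplotlib 3.10.9. Symbols came from the platform annotation, and 46 of 48 genes matched RefSeq by gene ID, 0 under another symbol. Probe sets with several symbols were counted apart. The files name no genome build.

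The members, the gene lists and the markers were chosen with earlier results of these data known. Named were all called genes, the 4 largest and 4 smallest changes in each subunit, the P stalk genes, Rpsa, Rps6, Rps27a and members with a paralogue among the members, and of other lists up to 3 called genes or the one with the smallest p. The other probe sets of a gene are given with it. Alternatives changed the normalization, pseudocount, filter, probe set rule, variance model, 3′ to 5′ ratio and arrays used.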

Additional observations from a re-analysis of the deposited data

Results flagged for a closer look

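Rplp0, the base of the P stalk, had 1 control array apart from the others. Control array 5 had a signal of 3106, against 2681 to 2749 on the other 4 control arrays, and the gap to the nearest of them was 0.841 of the group's whole range, past Dixon's critical value for 5 samples. It was 1 of 58 groups of arrays examined over the named genes and the measures by array, where chance marks about 1 in 20.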

How the results depend on the processing

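The 10 genes that rose kept their direction under all 23 alternatives, and no ribosomal protein gene fell under any of them. Their number was 5 after quantile normalization, 6 after cyclic loess, 3 with no filter on dim probe sets, 4 with the log2 ratio of 3′ over 5′ control signals as a covariate, 1 without an intensity trend and 29 without dehydrated array 5 and control array 1, the last including all 10. With 1 array left out it ran from 1 to 32. With no filter more probe sets enter the adjustment; otherwise the cause was not tested. Quantile normalization lowered the median log2 change to 0.042 for the large and 0.074 for the small subunit. With 1 array left out these medians ran from 0.237 to 0.369 (large) and 0.257 to 0.380 (small). The large minus small difference of -0.012 was -0.026 after quantile normalization, -0.034 with no filter, -0.067 over the brightest 40% of probe sets and -0.031 over genes with a mean signal of at least 1000, the last 3 over other sets of genes. Over all probe sets 458 were called, 1398 without dehydrated array 5 and control array 1, 240 without the trend, and 218 to 1156 with 1 array left out.

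Quantile normalization turned Rpl7 (-0.0091), Rpl26 (-0.075), Rplp0 (-0.014), Rps24 (-0.10) and Rpl23a (-0.024) below 0 and Rpl26l1 above it (0.015). Rpl26l1 was also above 0 after cyclic loess (0.0052), without dehydrated array 5 and control array 1 (0.041), and at 0.0054 to 0.073 without dehydrated array 3, 4 or 5 or control array 4, against -0.11 at the lowest without dehydrated array 2. Rpl39 turned to -0.24 with the ratio as a covariate and to -0.0090, -0.014 and -0.037 without dehydrated array 2 or 3 or control array 5, and was at most 0.35 with 1 array left out. Rps27l turned to -0.021 with that covariate and -0.052 with arrays centred on other bright probe sets. Of 571 values of single named genes under alternatives, 456 kept their direction and side of the threshold, 90 missed it, 7 newly passed and these 18 turned.

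Centring on other bright probe sets, the minimum signal of 1000 and the addition of probe sets with several symbols (14 genes higher) were chosen after seeing the data. No paired analysis was possible because the labels give no replicate numbers or pairing. Signal over background is not known for single probe sets, and some dim ones, such as Rpl39, have wide intervals.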
